A study of Mus musculus with 15 samples.

Results

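The Slc25 family of mitochondrial carriers was followed through the ageing of mouse gastrocnemius, a calf muscle of mostly fast fibres. Members were taken as all probes whose gene symbol on the array platform starts with Slc25a, which gave 57 of 25697 probes and 39 genes. A table of current mouse genes from RefSeq lists 47 genes of that name, and those without a probe, Slc25a4 among them, were not analysed here. RNA came from the muscle of 15 male C57BL/6 mice on ad libitum chow, in groups of 5 at 5 months (young), at 17 months (middle-aged) and at 28 months (old), with no other treatment named, and each mouse had 1 Illumina MouseRef-8 bead array. A gene counted as detected on an array when its detection p, the chance of a signal as high from background alone, was under 0.05. Levels below are background-corrected, quantile-normalised log2 intensities.

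Slc25 carriers sit for the most part in the inner mitochondrial membrane, where they exchange the substrates, nucleotides, amino acids and cofactors that the outer membrane lets through but the inner one does not. In muscle they deliver ADP and phosphate to ATP synthase, bring in acylcarnitines for fat oxidation and run the shuttle that passes the electrons of cytosolic NADH inward. Several are calcium regulated, so that transport can follow contraction, and a few members lie in peroxisomes or in the outer membrane.

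Of the 39 genes, 31 had a probe detected on at least 5 arrays and were tested, 28 of them detected on all 15. Slc25a24 and Slc25a27 were detected on 11 arrays each and Slc25a18 on 6. The 8 genes that were not tested include Slc25a13 (citrin, the aspartate-glutamate carrier of liver), Slc25a31 (the ADP/ATP carrier of testis), Slc25a21 (oxodicarboxylates), Slc25a40 (glutathione), Slc25a41 (ATP-Mg and phosphate), Slc25a48 and Slc25a53, which were detected on 0 arrays. The eighth, the glutamate carrier Slc25a22, was detected on 2 old arrays, 0 middle-aged arrays and 0 young arrays. Tests used the 9470 features that this filter and the choice of 1 probe per gene left, except where a second probe is named, of which 8760 are named genes.

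The arrays behind these values detected 11534 to 12593 probes each and correlated with each other at 0.948 to 0.994. Old replicate 3 stood furthest from the rest, with the lowest level of 26.9% and the highest level of 20.6% of all features. Among the 31 carriers it had the lowest level of 9 and the highest level of 5, namely Slc25a15, Slc25a16, Slc25a32, Slc25a36 and Slc25a46. Old replicate 5 stood apart in other ways. Its median carrier deviation from the gene means was -0.19, while all features on old replicate 5 were at 0.03. On old replicate 3 the carriers were at -0.17 and all features at -0.12. The slow-fibre genes of old replicate 5 deviated by -1.87, against 0.46 to 1.04 on the other old arrays and -0.83 to 0.20 on the young arrays. Estimates that change without old replicate 5 are to be read with this in mind. All 12 fast-fibre genes and all 9 slow-fibre genes with a probe were detected on every array. In a whole muscle, fewer cells of a type and less RNA per cell cannot be told apart.

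Old against young muscle, the longest age gap, had 1 carrier called by limma. Slc25a30, a carrier related to the uncoupling proteins that is also known as the kidney mitochondrial carrier, was lower in old muscle and was the 1 member called of 31, against 3.31% of all features called in either direction and 1.58% called lower. A call here means an adjusted p under 0.05 in limma over all 9470 features, two-sided. The median log2 difference of the 31 carriers was -0.02, the same as the -0.02 of all features. Of the 31, 28 lay within 0.5 of 0. Among all features, 9.27% differed by more than the 0.47 of Slc25a39, in either direction. The median size of the difference, without its sign, was 0.30 for the carriers and 0.17 for all features.

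**Figure D1:**
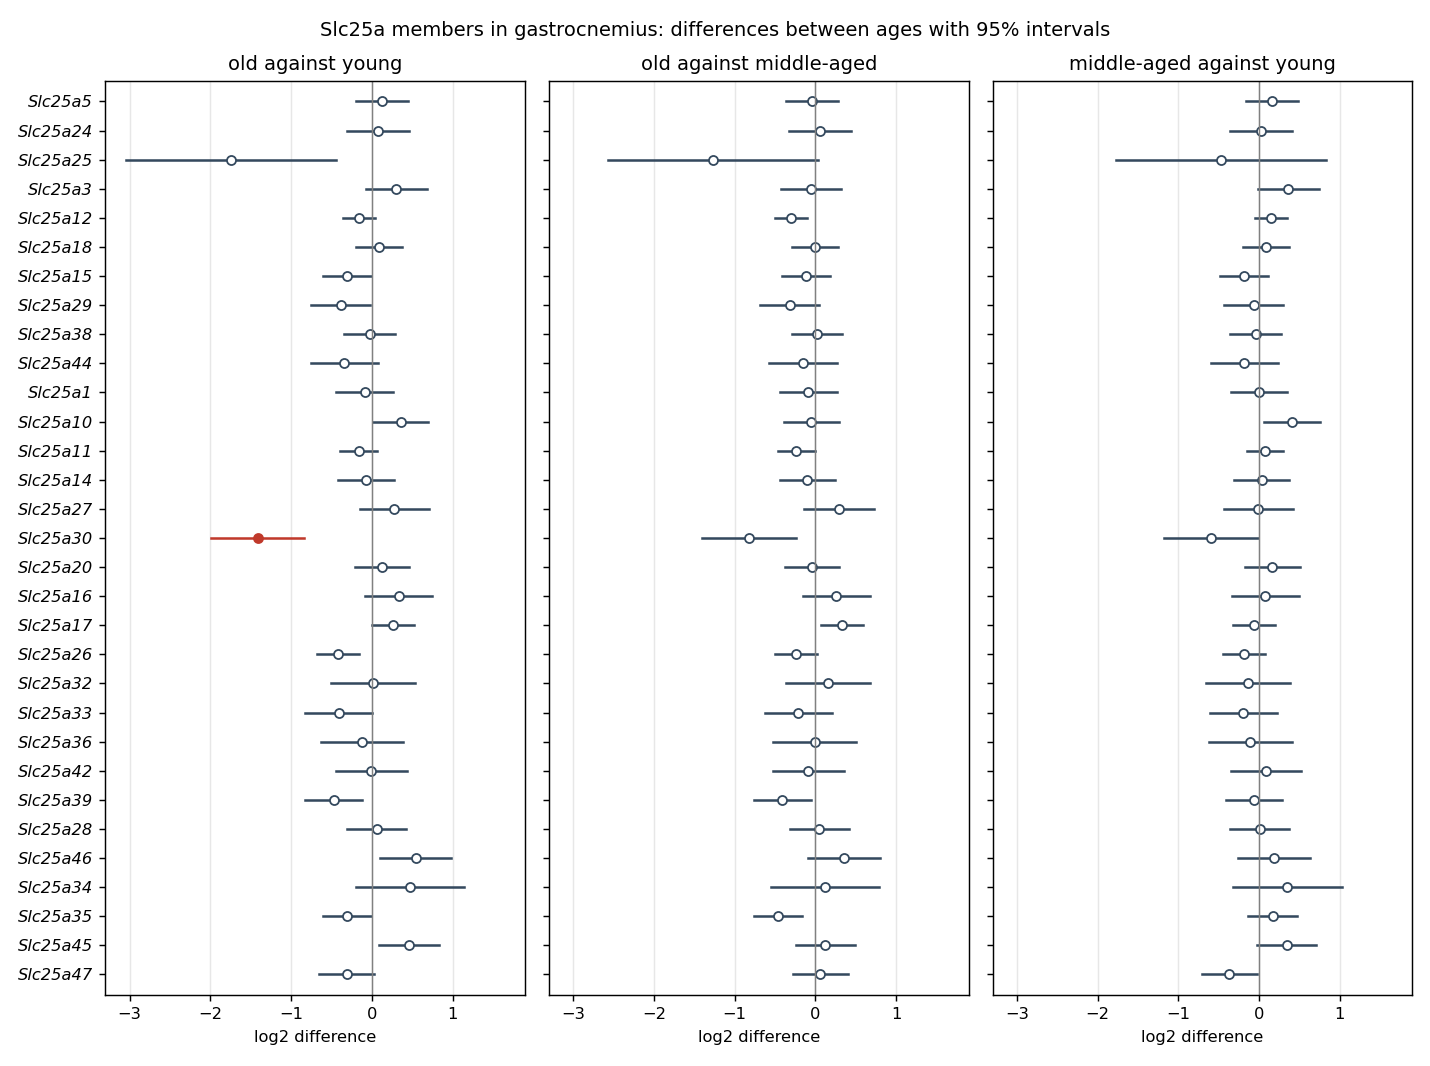
Log2 difference (x axis) of each of the 31 tested Slc25a genes (y axis, ordered by transport role), 1 panel for each pair of ages, with 95% intervals as bars and n = 5 arrays per group. The filled red point, Slc25a30 in old against young muscle, is the 1 call, and Slc25a25 has the widest intervals.

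Slc25a30 had levels of 6.97, 7.14, 7.21, 7.78 and 7.55 on the young arrays, 6.30, 6.40, 6.74, 7.57 and 6.66 on the middle-aged arrays and 5.31, 5.74, 6.48, 5.38 and 6.66 on the old arrays (replicates 1 to 5). Every old array lay below every young array, and old replicates 3 and 5 were the nearest to the young group. Middle-aged replicate 4 lay among the young values, and the other four middle-aged arrays lay below all young arrays and overlapped the old ones. The difference was 2.67-fold (log2 -1.42 ± 0.28, SE, n = 5 per group, limma adjusted p = 0.00781), with a 95% interval of -1.99 to -0.84. Its 2 steps were log2 -0.60 ± 0.28 in middle-aged against young muscle (adjusted p = 0.962) and -0.82 ± 0.28 in old against middle-aged muscle (adjusted p = 0.240), and neither step was called. A difference between the steps was not detectable (-0.23, adjusted p = 0.973). The gene was detected on all 15 arrays, with a raw intensity of 102 to 180 on old arrays and 174 to 295 on young arrays. Old replicates 1, 2 and 4 were at 102.4, 102.4 and 105.5, against array medians of 88.2, 84.2 and 86.9. The size of the difference varied with the processing, from log2 -1.72 to -0.86 over the alternatives on log2 values. The gene was still called with both old replicate 3 and middle-aged replicate 5 left out (log2 -1.57, adjusted p = 0.00404).

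Because Slc25a30 was the called member, the 250 bases before its 1 listed start are shown, chr14:75787038-75787287 on the minus strand of GRCm38.p6, from RefSeq. They read 5′ to 3′ along the gene, with capitals marking a CCAAT box (CCAAT) and a GC box (GGGCGG), and 64.4% of the bases are G or C.
Slc25a30: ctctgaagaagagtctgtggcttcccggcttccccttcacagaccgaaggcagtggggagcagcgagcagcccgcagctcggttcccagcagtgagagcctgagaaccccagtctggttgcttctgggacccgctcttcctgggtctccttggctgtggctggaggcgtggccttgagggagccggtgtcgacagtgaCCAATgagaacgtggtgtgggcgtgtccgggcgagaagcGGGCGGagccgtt
The CCAAT box lies 52 to 48 bases and the GC box 13 to 8 bases before the start. Searched on both strands, CCAAT occurs in 33.8% and GGGCGG in 32.7% of the 32851 mouse promoters of the same length. Of the 30 promoters listed for the 25 tested carriers in that table, 14 held CCAAT and 22 held GGGCGG.

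Slc25a25, a calcium-regulated carrier that exchanges ATP-Mg for phosphate and so adjusts the adenine nucleotides of the matrix, gave the largest estimate of the family and the widest error. Its levels were 7.57, 10.14, 10.72, 11.55 and 11.39 on the young arrays, 7.68, 9.70, 10.45, 11.01 and 10.17 on the middle-aged arrays and 8.37, 8.63, 8.24, 8.86 and 8.57 on the old arrays. The 5 old arrays lay close together, while replicate 1 of the young and replicate 1 of the middle-aged group lay below all of them and the other eight younger arrays lay above all of them. Old muscle was 3.35-fold lower on average (log2 -1.74 ± 0.62, 95% interval -3.05 to -0.44), which was not called (adjusted p = 0.134). Among the limma alternatives the call changed under 2. Without young replicate 1 the log2 difference was -2.42 (limma adjusted p = 0.0110). With the replicate number as a block and all arrays kept it was -1.74 (limma adjusted p = 0.0389). The methods' t-test on Z scores, at its own unadjusted thresholds, is not counted here. Against middle-aged muscle the old level differed by log2 -1.27 ± 0.62 (adjusted p = 0.418). The within-group SD was 0.24 in old, against 1.61 in young muscle, and pooled over the groups it was 1.20, larger than that of 99.9% of all features.

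Slc25a25 has 3 listed starts, and its probe does not say which of them was in use. The window before the third, chr2:32424067-32424316 on the minus strand of GRCm38.p6, is shown because it holds the palindrome TGACGTCA, the cyclic AMP response element, which was seen after the search. Capitals mark that element, a CCAAT box on the other strand (ATTGG) and a GC box (GGGCGG).
Slc25a25: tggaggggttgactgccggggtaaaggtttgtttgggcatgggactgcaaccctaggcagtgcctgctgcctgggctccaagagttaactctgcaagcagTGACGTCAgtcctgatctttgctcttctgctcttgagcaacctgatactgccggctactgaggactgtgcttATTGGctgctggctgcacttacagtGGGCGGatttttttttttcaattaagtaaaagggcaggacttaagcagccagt
The element lies 150 to 143 bases before the start. TGACGTCA is in 1.55% of all promoters and in 2 of the 30 carrier promoters, those of Slc25a25 and the pyrimidine nucleotide carrier Slc25a36. Of the other motifs searched, the E-box CACGTG was found in 6 of the 30 carrier promoters and in 6.02% of all promoters. The palindromic NRF1 site was found in 0 of the 30 and in 0.782% of all promoters, and the ERR element TCAAGGTCA in 0 of the 30 and in 0.387%. These are letter matches in a fixed window and no factor was measured at them.

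**Figure D2:**
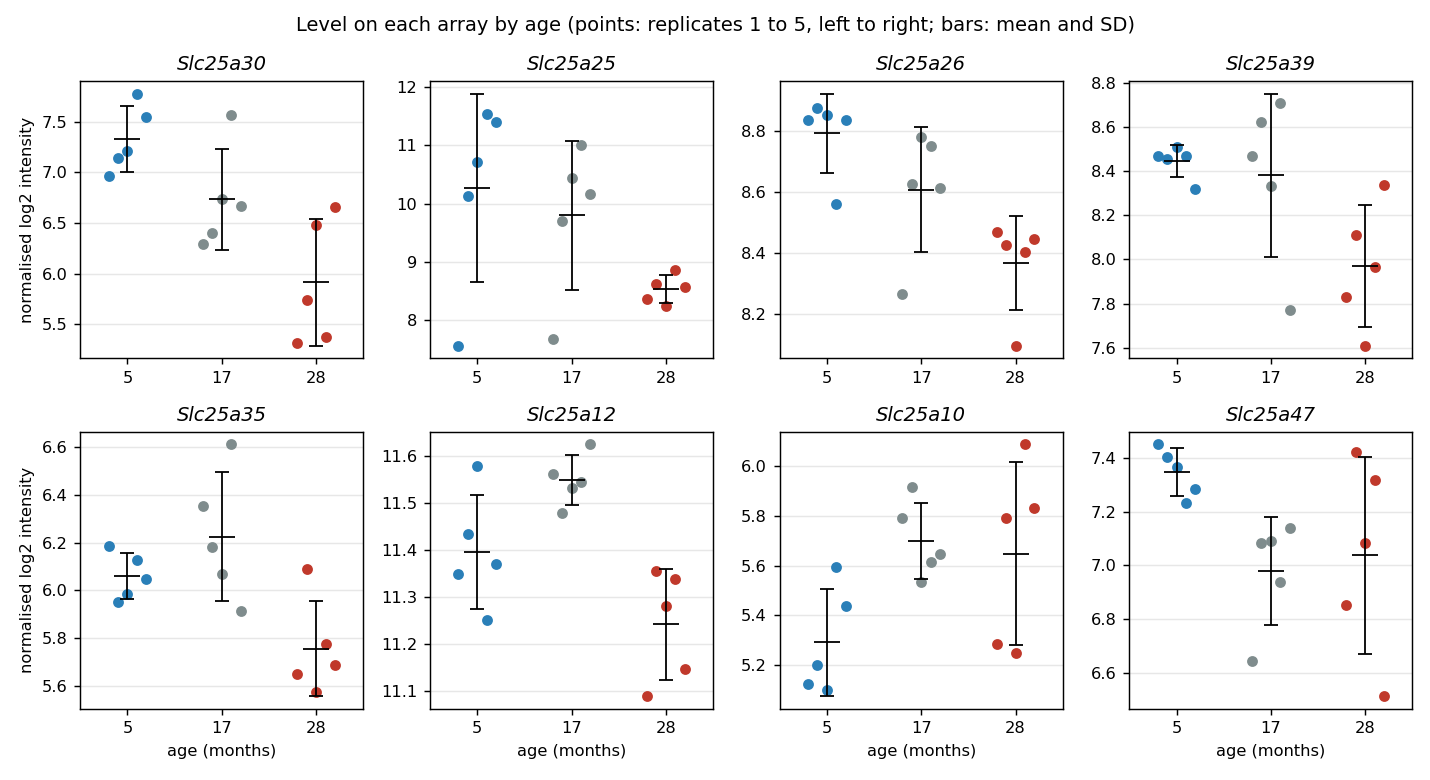
Normalised log2 intensity (y axes, scaled to each gene) on each array by age in months (x axes) for the 8 carriers described array by array, with points for replicates 1 to 5 from left to right and bars for the mean and SD. Slc25a30 and Slc25a26 have every old array below every young array, and Slc25a25 has 1 young and 1 middle-aged array far below the rest of their groups.

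Slc25a26, which imports the methyl donor S-adenosylmethionine, was the second carrier without overlap between old and young arrays. Its levels were 8.83, 8.87, 8.85, 8.56 and 8.84 on the young arrays, 8.26, 8.62, 8.78, 8.75 and 8.61 on the middle-aged arrays and 8.47, 8.42, 8.10, 8.40 and 8.44 on the old arrays. Old replicate 3 and young replicate 4 were each the low array of their group, and the middle-aged arrays spread over both ranges. The difference in old against young muscle was 1.34-fold (log2 -0.42 ± 0.12, 95% interval -0.69 to -0.16) with an adjusted p of 0.0708 in limma, just outside the call. These 2 genes, Slc25a30 and Slc25a26, are the carriers of 31 whose groups did not overlap, both lower in old muscle, against 4.67% of all features in either direction and 2.51% lower.

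Slc25a39, needed for the import of glutathione into mitochondria, had levels of 8.47, 8.45, 8.51, 8.47 and 8.32 on the young arrays, 8.47, 8.62, 8.33, 8.71 and 7.77 on the middle-aged arrays and 7.83, 8.11, 7.61, 7.96 and 8.34 on the old arrays. Old replicate 5 reached the young range and middle-aged replicate 5 lay inside the old one. The log2 difference in old against young muscle was -0.47 ± 0.17 (1.39-fold, adjusted p = 0.130), and without old replicate 5 it was -0.56 (adjusted p = 0.0475). Leaving out this array thus changed the call, and so did array weights with all arrays kept. The other glutathione carrier, Slc25a40, was detected on 0 arrays.

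At an unadjusted p under 0.05, 10 of the 31 carriers differed in old against young muscle, 3 higher and 7 lower, against 18.9% of all features (8.68% higher and 10.2% lower). Beside Slc25a30, Slc25a25, Slc25a26 and Slc25a39 the lower ones were the ornithine carrier Slc25a15 (log2 -0.31), the basic amino acid carrier Slc25a29 (-0.39) and Slc25a35 (-0.30), whose substrate is not settled. A second probe of Slc25a15 gave -0.13 ± 0.22. The higher ones were Slc25a46, an outer membrane protein of mitochondrial dynamics (0.54), Slc25a45, whose substrate is less settled (0.46), and the dicarboxylate carrier Slc25a10 (0.36). None of the 9 carriers other than Slc25a30 was called, with adjusted p-values between 0.0708 and 0.256. The Slc25a46 estimate leaned on old replicate 3: its old levels were 5.63, 5.40, 6.68, 6.14 and 5.25, against 5.35, 5.48, 5.21, 5.11 and 5.24 on the young arrays. The difference was 0.33 without old replicate 3 (adjusted p = 0.292) and 0.68 without old replicate 5 (adjusted p = 0.0498, called).

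**Figure D3:**
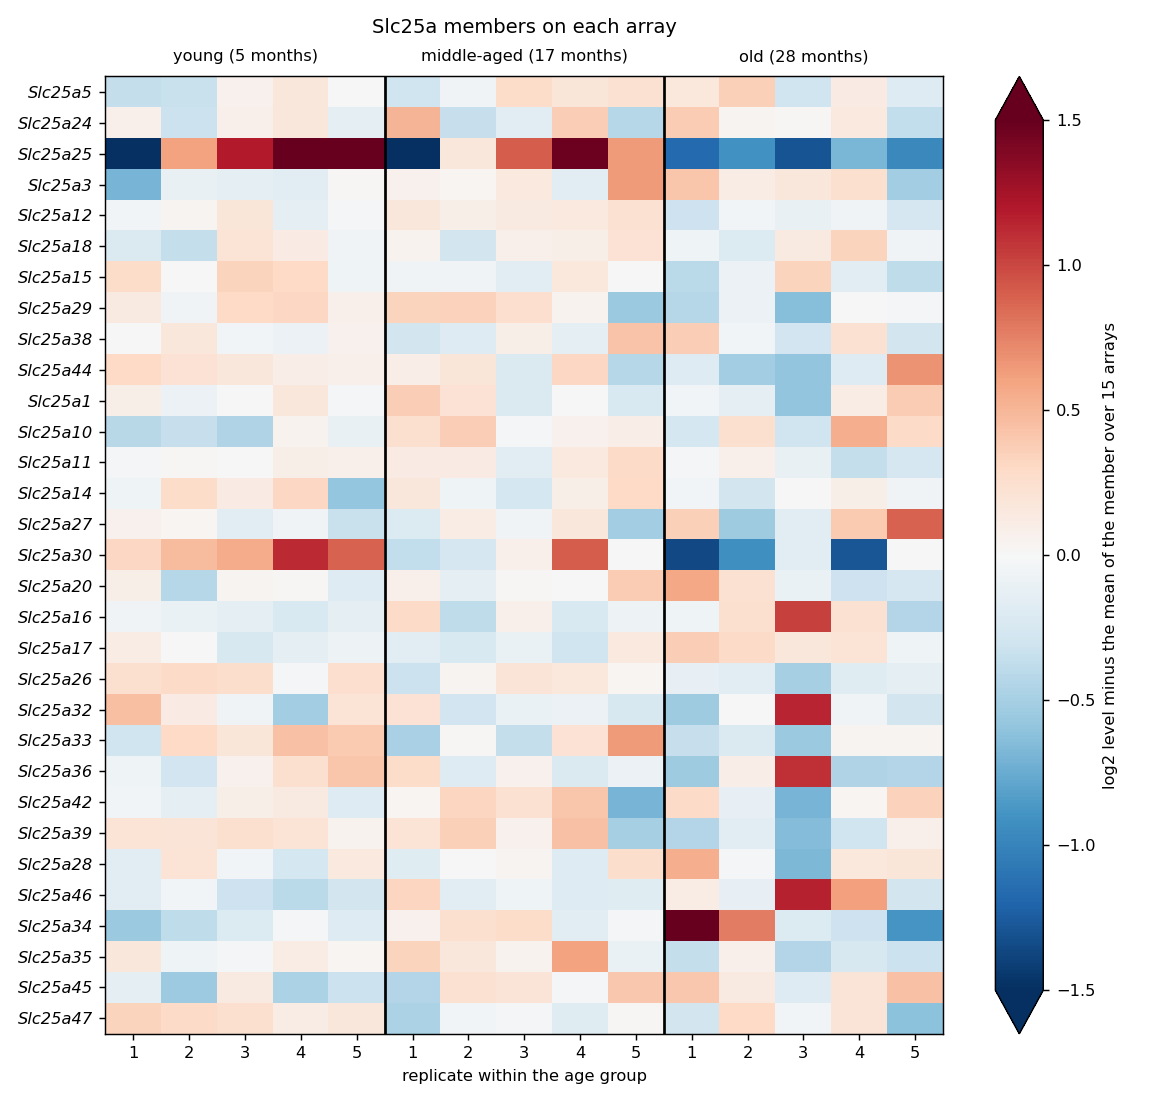
Log2 level of each tested Slc25a gene (rows, by transport role) on each array (columns, replicates 1 to 5 of the young, middle-aged and old groups), minus the gene's mean over the 15 arrays. The colour scale ends at -1.5 and 1.5 and deeper values take the end colour; Slc25a30 is red on all young arrays, Slc25a25 shows its low replicate 1 in the young and middle-aged groups, and old replicate 3 shows strong colours in both directions.

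Of the carriers of phosphate and adenine nucleotides, Slc25a25 is described above and none of the others was called in old against young muscle. Slc25a3, the phosphate carrier, averaged 12.98 ± 0.36 in old and 12.67 ± 0.28 in young muscle (SD, n = 5 each; log2 difference 0.31 ± 0.18, adjusted p = 0.370). The Slc25a3 difference was 0.19 without young replicate 1 and 0.46 without old replicate 5, and its second probe gave 0.03. The ADP/ATP carrier Slc25a5 averaged 10.87 ± 0.27 in old and 10.75 ± 0.24 in young muscle (0.12 ± 0.15, adjusted p = 0.704). Slc25a24, another ATP-Mg carrier, differed by 0.08. For Slc25a20, which exchanges acylcarnitines for carnitine, the log2 difference was 0.13 ± 0.16 (adjusted p = 0.711), and a second probe gave 0.62 ± 0.42. Second probes were fitted with every probe as its own feature, over 12552 features.

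Of the amino acid carriers, 6 of the 8 with a probe were tested, and in old against young muscle the estimates were below 0 for 5 and above 0 for 1, with 0 called by limma (2 at an unadjusted p under 0.05, Slc25a15 and Slc25a29, against 18.9% of all features). Without old replicate 3 Slc25a15 was called (-0.43, adjusted p = 0.0444). Its second probe gave -0.13 ± 0.22 with all arrays kept. Slc25a44, which brings in branched-chain amino acids, was at -0.34 ± 0.20, the aspartate-glutamate carrier Slc25a12 at -0.15 ± 0.10, the glycine carrier Slc25a38 at -0.02 ± 0.15 and the glutamate carrier Slc25a18 at 0.09 ± 0.14. Slc25a44 was lower than every young array on 4 of the 5 old arrays (7.96, 7.63, 7.56 and 7.96) and higher than every young array on old replicate 5 (8.82), against 8.23 to 8.45 on the young arrays. Without old replicate 5 it was called, at -0.55 ± 0.15 (adjusted p = 0.0388). Among carboxylate carriers the citrate carrier Slc25a1 (-0.09) and the oxoglutarate carrier Slc25a11 (-0.16), which works with Slc25a12 in the malate-aspartate shuttle, were near their young level. The 2 carriers akin to uncoupling proteins other than Slc25a30 were Slc25a14 (-0.07) and Slc25a27 (0.28, and 0.10 without old replicate 5 or 0.46 without old replicate 2).

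Cofactor and nucleotide carriers were tested for 7 genes, with 0 called by limma in old against young muscle and 1, Slc25a26, at an unadjusted p under 0.05, against 18.9% of all features. The coenzyme A carrier Slc25a42 was at -0.0040 ± 0.21 and Slc25a16, linked to coenzyme A as well, at 0.33 ± 0.20 (0.12 without old replicate 3). The pyrimidine nucleotide carriers Slc25a33 and Slc25a36 were at -0.41 ± 0.20 and -0.12 ± 0.24, the folate and FAD carrier Slc25a32 at 0.01 ± 0.25 and the peroxisomal carrier Slc25a17 at 0.26 ± 0.12. Slc25a16, Slc25a32 and Slc25a36 each had their highest level on old replicate 3, at 10.76, 7.50 and 9.96, against at most 10.03, 6.80 and 9.28 on the young and middle-aged arrays. The iron carrier Slc25a28 (mitoferrin 2) differed by 0.06 ± 0.18. Among the remaining members, Slc25a34 was at 0.47 ± 0.32 and Slc25a47 at -0.31 ± 0.16. Without old replicate 1 the Slc25a34 difference was 0.12 (adjusted p = 0.835) and without old replicate 5 it was 0.74 (adjusted p = 0.120). Without old replicate 5 the Slc25a47 difference was -0.18.

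Old against middle-aged muscle, the later step, had 0 carriers called by limma, against 0.317% of all features. At an unadjusted p under 0.05 there were 6 carriers, 1 higher and 5 lower, against 12.2% of all features (5.46% higher and 6.76% lower), and the median over the family was -0.05, against -0.02 over all features. The higher one was Slc25a17 (0.32 ± 0.12, adjusted p = 0.302). The lower ones were Slc25a12, Slc25a35, Slc25a30, Slc25a39 (-0.41 ± 0.17) and Slc25a11 (-0.24 ± 0.11). The other probes of Slc25a11 gave -0.0072 and -0.046 in this comparison. After Benjamini-Hochberg adjustment the methods' own test on Z scores also called 0.

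Slc25a12, the calcium-regulated aspartate-glutamate carrier of muscle, had levels of 11.35, 11.43, 11.58, 11.25 and 11.37 on the young arrays, 11.56, 11.48, 11.53, 11.54 and 11.62 on the middle-aged arrays and 11.09, 11.35, 11.28, 11.34 and 11.15 on the old arrays. Every old array lay below every middle-aged array, and the old and young ranges overlapped. It was the 1 carrier with no overlap in this comparison, against 1.5% of all features (0.813% lower), at a log2 difference of -0.31 ± 0.10 (1.24-fold, adjusted p = 0.208). Its pooled SD of 0.10 was the smallest of the 31 carriers.

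Slc25a35 had levels of 6.18, 5.95, 5.99, 6.13 and 6.05 on the young arrays, 6.35, 6.18, 6.07, 6.61 and 5.91 on the middle-aged arrays and 5.65, 6.09, 5.58, 5.78 and 5.69 on the old arrays. Old replicate 2 lay among the younger arrays, and the other four old arrays lay below all of them. The difference against middle-aged muscle was -0.47 ± 0.14 (1.38-fold, adjusted p = 0.197).

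Middle-aged against young muscle, the earlier step, had 0 carriers called by limma and 1 feature of all 9470 (0.0106%). At an unadjusted p under 0.05 there were 3 carriers, 1 higher and 2 lower, against 5.07% of all features (2.98% higher and 2.09% lower), with 0 called by the methods' test after adjustment. Slc25a10, which exchanges dicarboxylates such as malate and succinate for phosphate, had levels of 5.13, 5.20, 5.10, 5.59 and 5.44 on the young arrays, 5.79, 5.92, 5.53, 5.61 and 5.65 on the middle-aged arrays and 5.28, 5.79, 5.25, 6.09 and 5.83 on the old arrays. Young replicate 4 lay inside the middle-aged range and the other four young arrays below it, and the old arrays spread from inside the young range to above the middle-aged one. The log2 difference was 0.41 ± 0.16 (1.33-fold, adjusted p = 0.851).

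Slc25a47, a carrier best known from liver, was the 1 carrier whose middle-aged and young arrays did not overlap, against 2.46% of all features (0.898% lower). Its levels were 7.45, 7.41, 7.37, 7.23 and 7.29 on the young arrays, 6.64, 7.08, 7.09, 6.94 and 7.14 on the middle-aged arrays and 6.85, 7.42, 7.08, 7.32 and 6.51 on the old arrays. All middle-aged arrays were below all young arrays, and the old arrays spread from below the middle-aged range to the young one. The log2 difference was -0.37 ± 0.16 (1.29-fold, adjusted p = 0.910). The third carrier in this step was Slc25a30, at the value given above.

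Ordered by the 3 group means, 10 carriers were lower at each later age and 6 were higher at each, while 10 peaked and 5 were lowest at 17 months. The shares among all features were 24.5% lower at each age, 20.5% higher at each, 28.9% highest and 26.1% lowest at 17 months. Tested directly, the difference between both steps (later minus earlier) gave 0 carriers called by limma, against 0.0211% of all features, and 2 lower ones at an unadjusted p under 0.05, Slc25a12 and Slc25a35, against 4.56% in either direction and 2.56% lower. Its values were -0.46 ± 0.16 for Slc25a12 and -0.64 ± 0.25 for Slc25a35, both with an adjusted p of 0.973.

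How far each comparison could have missed a change was read from the 95% intervals. They excluded a change of 2-fold or more in the normalised level, in either direction, for 28 carriers between old and young muscle, for 29 between old and middle-aged muscle and for 28 between middle-aged and young muscle. The exceptions were Slc25a25 and Slc25a30 in each comparison and Slc25a34 in old against young and middle-aged against young muscle. The intervals excluded 2-fold for 93.7%, 95.2% and 97.3% of all features in the same 3 comparisons. Levels near background are compressed by the offset added in background correction. For members at such levels the bound therefore does not carry over to the amount of transcript.

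The spread between mice varied widely among the carriers. The pooled within-group SD had a median of 0.29 over the 31 carriers, against 0.25 over all features, and ran from 0.10 for Slc25a12 to 1.20 for Slc25a25. For 25 of the 31 the SD was larger in old than in young muscle, as it was for 80.9% of all features. Without old replicate 3 this held for 22 carriers and for 66.9% of all features. Slc25a34 had the largest old SD at 0.99, against 0.20 in young muscle, with old levels of 8.83, 7.98, 7.01, 6.91 and 6.33, against 6.66, 6.84, 7.01, 7.18 and 7.02 on the young arrays.

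**Figure D4:**
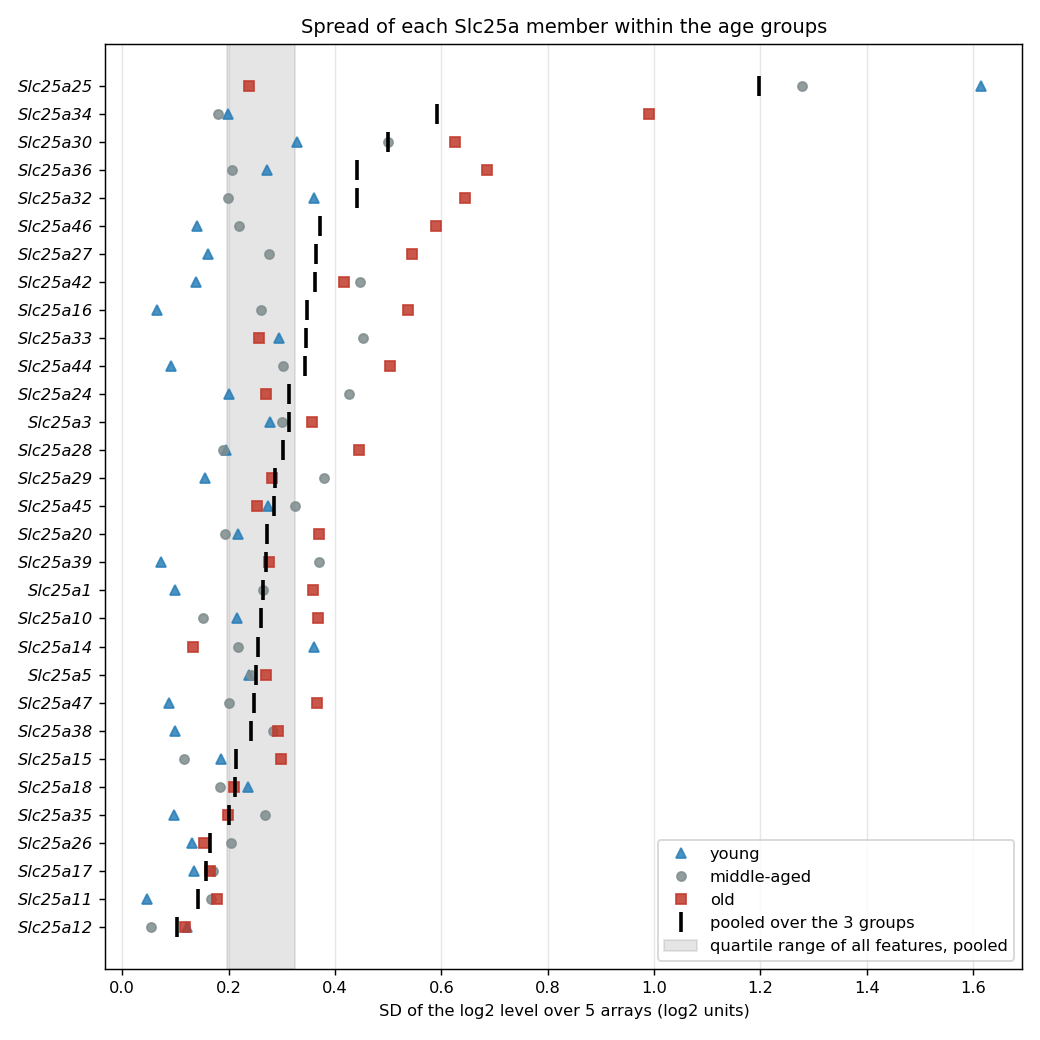
SD of the log2 level over the 5 arrays of each age (symbols, x axis in log2 units) for each tested Slc25a gene (y axis, ordered by the pooled SD), with black ticks for the SD pooled over the 3 groups and a grey band for the quartile range of all features. Slc25a25 lies alone at 1.20, with its old arrays at 0.24, and Slc25a12 is lowest at 0.10.

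Genes that work with the carriers were counted from 9 lists of 42 tested genes, and limma called 0 of the 42 in each of the 3 comparisons. The lists held the carrier relatives under other symbols (3 tested, with Ucp3 at -0.52 ± 0.37 in old against young muscle), the malate-aspartate shuttle enzymes (4), the carnitine shuttle enzymes (3), creatine and adenylate kinases (4), outer membrane channels (3), the calcium uniporter set (3), the import machinery for carriers (9), iron-sulphur and haem partners (6) and regulators of mitochondrial genes (7). An unadjusted p under 0.05 was found for 3 of the 42 in old against young muscle (18.9% of all features), for 2 in old against middle-aged muscle (12.2%) and for 2 in middle-aged against young muscle (5.07%). The lowest in old against young muscle were the uniporter regulator Micu2 (0.45 ± 0.13, adjusted p = 0.0721) and the adenylate kinase Ak1 (-0.31 ± 0.11, adjusted p = 0.121), followed by Timm9 of the import machinery (-0.26 ± 0.12, adjusted p = 0.232). The nuclear oxidative phosphorylation list had 46 genes tested, with estimates below 0 for 42 in old against young muscle. The median was -0.14, against the -0.02 of all features. Limma called 0 of the 46, and 2 had an unadjusted p under 0.05, against 18.9% of all features. The lower level lay mostly on old replicates 3 and 5, where the list deviated by -0.38 and -0.18 from the gene means. Old replicates 1, 2 and 4 were at -0.01, 0.12 and -0.00018, against 0.01 to 0.10 on the young arrays.

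Markers of other cells moved between the same groups. All 8 macrophage genes tested had estimates above 0 in old against young muscle and 4 were called, against 3.31% of all features, with a summed linear level of 2277 to 4053 on old arrays and 1094 to 1791 on young arrays. Of 7 fibroblast genes 3 were called lower, against 1.58% of all features, and the median over the 7 was -0.88. Those called were the matrix collagens Col1a1 (-1.86) and Col1a2 (-1.35) and the surface protein Thy1 (-0.99). Dcn was at -0.11, Pdgfra at 0.10 and Lum at 0.28. The sums over the 7 were 8953 to 14397 on old arrays and 11874 to 16220 on young arrays. Fast-fibre genes had a median difference of 0.02 over 12 genes with 0 called. Slow-fibre genes had a median difference of 0.64 over 9 genes, with estimates above 0 for 8, below 0 for 1 and 0 called. Slow-fibre sums were 18361 to 94482 on old arrays and 32566 to 60706 on young arrays. The slow-fibre genes were low on old replicate 5 (deviation -1.87 from the gene means) and high on the other old arrays (0.46 to 1.04). Of the 6 fat cell genes with a probe, Retn and Fabp4 were detected on 0 arrays. The 3 tested summed to 311 to 1701 on old arrays, 429 to 3017 on middle-aged arrays and 259 to 480 on young arrays. In middle-aged against young muscle their median difference was 1.49, with estimates above 0 for all 3 and 0 called by limma. Limma called 0 endothelial genes of 7, 0 Schwann cell and nerve genes of 5 and 0 red blood cell genes of 4 in old against young muscle. The part of these cell types in the Slc25a30 difference was not tested.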

How the data were processed

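RNA of 15 gastrocnemius samples, labelled as replicates 1 to 5 of each age, was hybridised by the authors to Illumina bead arrays read with GenomeStudio 2011.1. The paper lists 5 mice per age, which was taken as 1 mouse per array. The authors deposited raw intensities without normalisation, a detection p-value per probe and array, and a Z score (natural log of the intensity, centred and scaled by array), which matched a recomputation within 0.000924. Here, neqc of limma 3.58.1 in R 4.3.3 corrected background (offset 16), normalised by quantiles and gave log2 values of the deposited intensities. Probes with detection p under 0.05 on at least 5 arrays were kept, the probe with the highest mean standing for a gene. One linear model with an intensity trend held all 15 arrays, with two-sided tests and Benjamini-Hochberg adjustment over 9470 features. The model was tested on simulated data with independent noise and 1 SD per feature for all ages. In the data the SD was larger in old than in young muscle for 80.9% of all features, which the simulation did not include.

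Members and gene lists were chosen with earlier results of these data known. Array-by-array values were given by rule to members called or with the lowest p in a comparison, up to 4 in old against young and 3 in each step; the arrays of Slc25a34, Slc25a44 and Slc25a46 were added after their values were seen. Probe sequences were not used here, so hybridisation of related carriers to 1 probe was not examined. Alternatives covered background, scaling, filters, probes, weights, a replicate block, left-out arrays and the methods' t-test on Z scores.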

Additional observations from a re-analysis of the deposited data

Results flagged for a closer look

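In each age group of 5 arrays, the gap of the extreme array to its neighbour was divided by the range of the group, and a ratio above 0.71 marked an array as apart. This held for 4 of 93 groups, and chance marks about 1 group in 20. Slc25a26 had 2 such arrays. Old replicate 3 lay at 8.10, against 8.40 to 8.47 on the other old arrays (ratio 0.827), and young replicate 4 lay at 8.56, against 8.83 to 8.87 on the other young arrays (ratio 0.875). For Slc25a3, the phosphate carrier, young replicate 1 lay at 12.19, against 12.73 to 12.91 on the other young arrays (ratio 0.746). For Slc25a46, middle-aged replicate 1 lay at 5.85, against 5.33 to 5.46 on the other middle-aged arrays (ratio 0.749).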

How the results depend on the processing

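Slc25a30 in old against young muscle was called by limma under every alternative run, with log2 differences of -1.72 to -0.86 and adjusted p-values of 0.000524 to 0.0358 (left-out arrays: -1.60 to -1.27, 0.00147 to 0.0286); on the Z scores its difference was -0.56. The methods' t-test gave it 0.112 after Benjamini-Hochberg adjustment.

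The count of carriers called in old against young muscle, 1, became 3 with array weights (Slc25a15, Slc25a30 and Slc25a39), 2 with a replicate block (Slc25a25 and Slc25a30), 2 with both old replicate 3 and middle-aged replicate 5 left out (Slc25a15 and Slc25a30), 5 by the methods' t-test at its own thresholds and 0 by that test after adjustment. Leaving out each array in turn gave 1 to 4 calls: 2 without young replicate 1, 2 without old replicate 3 and 4 without old replicate 5 (Slc25a30, Slc25a39, Slc25a44 and Slc25a46). In old against middle-aged muscle the 0 became 4 with array weights (Slc25a17, Slc25a30, Slc25a35 and Slc25a39) and 0 to 1 over left-out arrays (Slc25a30 without old replicate 5, adjusted p = 0.0447). In middle-aged against young muscle the 0 became 2 by the methods' t-test at its thresholds (Slc25a34 and Slc25a47). The cause was not tested.

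The replicate block moved Slc25a25 in old against young muscle to an adjusted p of 0.0389 and changed no other call. Deviations of same-numbered arrays correlated at -0.225 to 0.0807 between old and young and -0.497 to 0.0851 between old and middle-aged. Between middle-aged and young they correlated at 0.403, 0.0974, -0.0461, 0.146 and 0.309 for replicates 1 to 5. By a set rule, that every pair be above 0.1, the numbers were not taken as pairs. Whether same-numbered young and middle-aged arrays shared a factor was not tested.

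Estimates near 0 turned sign for some members. Slc25a10 in old against middle-aged muscle was 0.026 with array weights, 0.035 without old replicate 3 and middle-aged replicate 5, 0.0020 without young replicate 4 and middle-aged replicate 2, and -0.16 to 0.049 over left-out arrays. Slc25a47 in the same comparison was -0.012 with median scaling, -0.0017 on the Z scores, the deposited Z scores and in the methods' t-test, and reached -0.039 over left-out arrays. Slc25a39 in middle-aged against young muscle was 0.064 with array weights, 0.089 without old replicate 3 and middle-aged replicate 5, and -0.15 to 0.088 over left-out arrays. Slc25a25 in that comparison ran from -1.15 to 0.060 over left-out arrays. For the later minus the earlier step, Slc25a30 ran from -0.45 to 0.19 and Slc25a26 from -0.22 to 0.032 over left-out arrays, with 0.018 for Slc25a26 without old replicate 3 and middle-aged replicate 5 and 0.013 without young replicate 4 and middle-aged replicate 2. Precision is limited by 5 arrays per age, and members near background are compressed by the offset.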
